A study of Danio rerio with 20 samples.

Results

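The Period genes *per1a* (ENSDARG00000056885), *per1b* (ENSDARG00000012499), *per2* (ENSDARG00000034503) and *per3* (ENSDARG00000010519) were followed through the day in zebrafish larvae. They were chosen by name and identifier and not by a cutoff on their values, though earlier results of these data were known. They are 4 of the 32512 genes in the count table. RNA-Seq covered larvae at 5 dpf kept under 12 h of light and 12 h of darkness and sampled at ZT3, ZT9, ZT15 and ZT21 (hours after lights on). The 5 conditions were untreated wild-type (WT) siblings, untreated *rx3 weak* mutants, untreated *rx3 strong* mutants, WT siblings under 25 µM dexamethasone (DEX, a synthetic glucocorticoid, GC), and *rx3 strong* mutants under 25 µM DEX. The study describes larvae of both *rx3* alleles as eyeless. The strong allele also has few of the pituitary corticotropes that drive cortisol release, whereas the study describes normal daily cortisol in the weak allele. The labels name a mixed strain background of TU, AB and WIK, where the methods name AB, and they call the larvae without DEX untreated where the methods give a DMSO vehicle. Each library came from 30 pooled larvae. There was 1 library per condition and time point, 20 in all, so no value at a single time point has a replicate, and the tests used other genotypes or other time points in place of replicates.

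Period proteins form the repressing arm of the circadian clock. The transcription factors Clock and Bmal switch on the *per* and *cry* genes, whose protein products enter the nucleus, block Clock and Bmal, and are broken down again before the next cycle. *per1a*, *per1b* and *per3* are mostly known as clock-driven genes in zebrafish, while *per2* is also switched on directly by light, which in this species reaches the clocks of most tissues. In mammals, *Per1* and *Per2* are known GC receptor targets.

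Untreated libraries held 16427280 to 22204708 counts each, and DEX libraries 12586879 (WT siblings at ZT3) to 49738048. The 4 genes had between 20 and 8265 counts in a library. Values are given in CPM (each gene's share of the library's counts, scaled to a common library size) after TMM scaling over the 20 libraries. *rx3* itself was at 4.05 to 6.60 CPM in untreated WT siblings and at 1.64 to 2.85 CPM in the untreated mutants, and under DEX at 1.66 to 4.47 CPM in WT siblings and 1.42 to 1.86 CPM in *rx3 strong* mutants, where the ranges overlapped. The summed level of 14 photoreceptor genes was 2001 to 3606 CPM in untreated WT siblings, 91.8 to 273 CPM in the weak and 11.7 to 18.04 CPM in the strong allele, and it was 2772 to 8174 CPM in WT siblings and 15.96 to 34.4 CPM in *rx3 strong* mutants under DEX. As the labels give it, the untreated libraries were made with a directional mRNA-seq kit and the DEX libraries with the TruSeq mRNA kit, so that treatment and kit cannot be told apart.

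The first question was how the 4 genes run through the day and whether they do so alike. All 4 were strongly rhythmic in untreated larvae, each with its own shape. *per1a* peaked in the late night, *per1b* stayed high from late night into the morning, *per3* was highest in the morning, and *per2* was high in the morning and low at both time points of the night.

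*per1a* was at 24.2, 3.94, 4.67 and 127 CPM at ZT3, ZT9, ZT15 and ZT21 in untreated WT siblings. It was at 21.1, 3.48, 6.66 and 99.9 CPM at the same times in *rx3 weak* mutants. It was at 16.2, 4.38, 5.17 and 70.6 CPM in *rx3 strong* mutants. ZT21 stood above every other time point in each genotype, and ZT9 and ZT15 were both low. The ratio of the highest to the lowest time point, with its 95% counting interval, was 32.3 in WT siblings (25.6 to 41.5), 28.7 in *rx3 weak* mutants (22.8 to 36.7) and 16.1 in *rx3 strong* mutants (13.1 to 20.0). These intervals, and all those given for single libraries, are exact and cover counting error only.

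*per1b* was at 176, 11.2, 2.77 and 205 CPM at ZT3, ZT9, ZT15 and ZT21 in untreated WT siblings. It was at 153, 12.9, 2.50 and 181 CPM in *rx3 weak* mutants. It was at 181, 14.9, 2.59 and 184 CPM in *rx3 strong* mutants. *per1b* was thus high at both ZT21 and ZT3, on either side of lights on, and lowest just after dusk. Its highest level was 74.1 times its lowest in WT siblings (57.0 to 97.9), 72.3 times in *rx3 weak* mutants (55.5 to 95.9) and 71.0 times in *rx3 strong* mutants (54.6 to 94.2).

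*per3* was at 84.7, 12.2, 0.973 and 51.3 CPM at ZT3, ZT9, ZT15 and ZT21 in untreated WT siblings. It was at 70.3, 13.0, 1.03 and 42.6 CPM in *rx3 weak* mutants. It was at 78.9, 9.72, 1.52 and 45.4 CPM in *rx3 strong* mutants. It followed *per1b* in its trough at ZT15 but was higher at ZT3 than at ZT21 in each genotype. Its ratio of highest to lowest was 87.0 in WT siblings (56.2 to 143), 68.4 in *rx3 weak* mutants (45.4 to 108) and 51.7 in *rx3 strong* mutants (36.7 to 75.4), and these intervals are wide because the trough rests on few counts.

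*per2*, the light-induced member, was at 201, 65.4, 5.89 and 7.71 CPM at ZT3, ZT9, ZT15 and ZT21 in untreated WT siblings. It was at 148, 43.4, 4.56 and 5.14 CPM in *rx3 weak* mutants. It was at 161, 35.9, 5.91 and 8.09 CPM in *rx3 strong* mutants. It was the one Period gene that stayed low at ZT21, and both light-phase libraries lay above both dark-phase libraries in each genotype. Its ratio of highest to lowest was 34.1 in WT siblings (28.4 to 41.2), 32.5 in *rx3 weak* mutants (26.7 to 39.9) and 27.3 in *rx3 strong* mutants (22.8 to 32.8).

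**Figure D1:**
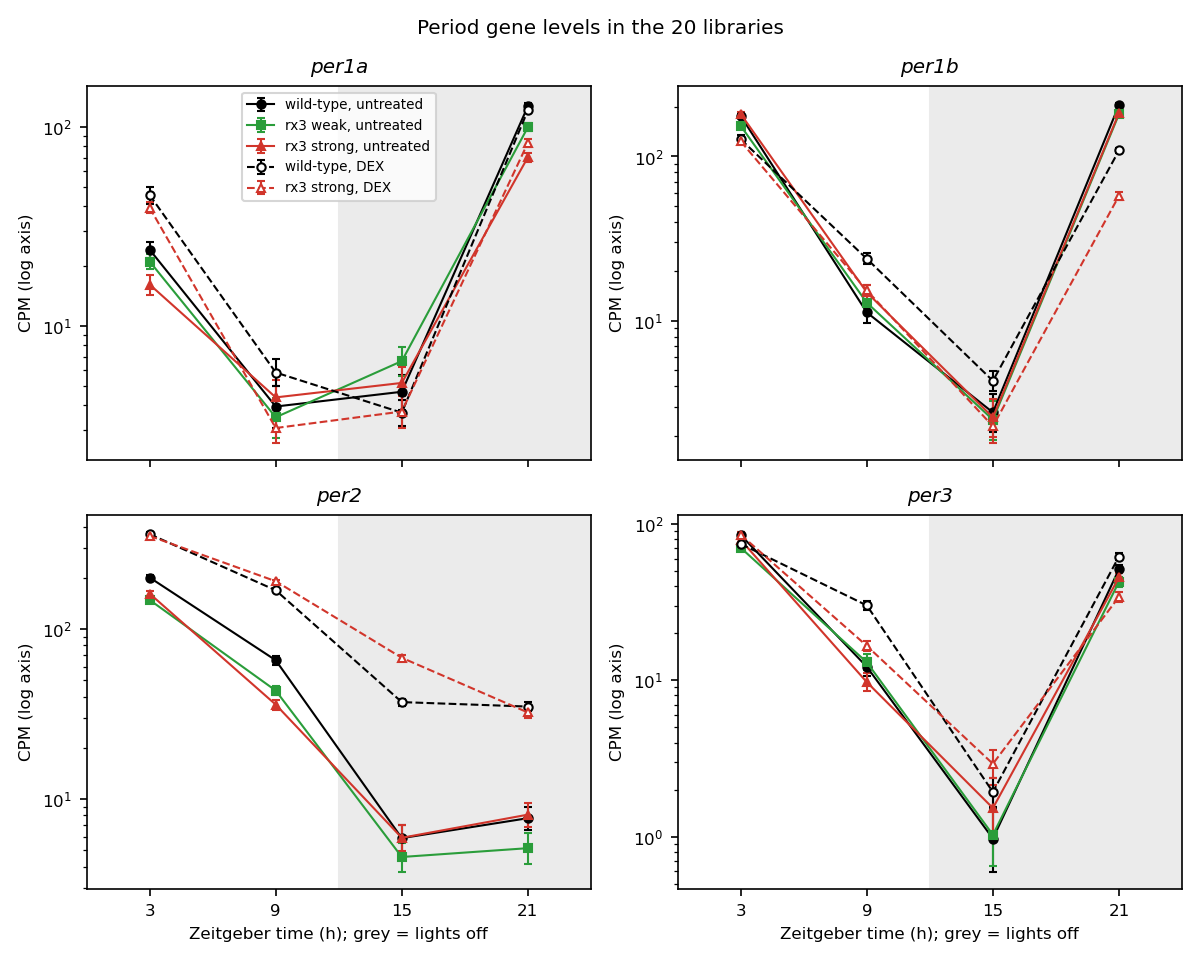
Level of *per1a*, *per1b*, *per2* and *per3* in CPM on a log axis against zeitgeber time in hours, with the dark phase in grey. Each point is 1 library with its 95% counting interval, filled symbols and solid lines are untreated and open symbols and dashed lines are DEX libraries. The lines of the 3 untreated genotypes run close together for each gene, while *per2* under DEX lies above them at every time point and bottoms out at 32.3 to 35.0 CPM.

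For the rhythm test, a cosine and a sine of 24 h period were tested jointly with 1 mean per genotype, using the quasi-likelihood F test of edgeR, Benjamini-Hochberg adjustment over all genes tested and a threshold of 0.05. All 4 genes were called rhythmic in the 12 untreated libraries, where 16.7% of 22391 genes were. The fitted peak-to-trough difference on the log2 scale was 5.26 for *per1a* (adjusted p = 1.61e-07), 6.78 for *per1b* (adjusted p = 3.67e-07), 5.81 for *per2* (adjusted p = 1.33e-08) and 5.57 for *per3* (adjusted p = 2.08e-06), against a median of 0.32 over all genes tested. The fitted peaks followed each other from *per1a* at ZT22.29 over *per1b* at ZT0.58 and *per3* at ZT1.52 to *per2* at ZT4.79. A cosine is a coarse description of profiles sampled at 4 time points, and a peak cannot be placed more finely than those times allow.

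The steps between neighbouring time points, tested across the 3 genotypes with the same tool, show which gene turned at which time of day. From ZT21 to ZT3, over lights on, *per2* rose by 4.61 on the log2 scale (SE 0.15, adjusted p = 1.27e-12), the second smallest p-value of 22845 genes, and *per3* rose by 0.75 (SE 0.11, adjusted p = 2.29e-04). In the same step *per1a* fell by 2.26 (SE 0.15, adjusted p = 9.15e-09), and *per1b* differed by -0.16 (SE 0.09, adjusted p = 0.316), which did not pass the test. In this step 11.4% of all genes were called, 7.17% higher and 4.20% lower. Over this step *per2* and *per3* thus rose while *per1a* fell, and the time of day and the onset of light cannot be told apart in it.

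From ZT3 to ZT9 all 4 genes fell, where 2.18% of genes were called (1.47% lower and 0.705% higher). On the log2 scale the differences were -3.71 for *per1b* (SE 0.11), -2.75 for *per3* (SE 0.13), -2.36 for *per1a* (SE 0.18) and -1.84 for *per2* (SE 0.13), with adjusted p-values between 2.79e-13 and 8.57e-08. *per1b* had the smallest p-value of all genes in this step. From ZT9 to ZT15, over lights off, 3 genes fell, *per3* with a log2 difference of -3.30 (SE 0.18), *per2* with -3.12 (SE 0.15) and *per1b* with -2.32 (SE 0.14), with adjusted p-values between 2.79e-10 and 3.46e-09. *per1a*, already at its low level at ZT9, differed by 0.47 (SE 0.20, adjusted p = 0.218). The background of this step was 4.76%, with 1.30% higher and 3.46% lower.

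From ZT15 to ZT21, within the night, *per1b* rose by 6.19 on the log2 scale (SE 0.13, adjusted p = 8.06e-16), *per3* by 5.30 (SE 0.17, adjusted p = 2.68e-13) and *per1a* by 4.15 (SE 0.17, adjusted p = 5.87e-12). *per1b* had the smallest p-value of all genes here too. *per2* differed by 0.36 (SE 0.17, adjusted p = 0.232), so the night-time rise of the other 3 genes was not detected in it. In this step 10.1% of genes were called, 5.71% higher and 4.38% lower. In these 4 steps, the sets of calls did not change when any of the 3 genotypes was left out or with any other tool or scaling tried.

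Levels were set against each other per kilobase (RPKM, with the gene lengths of the count table), as mean ± SD over the 3 untreated genotypes. At ZT3, *per2* was at 34.1 ± 5.49, *per3* at 28.1 ± 2.61, *per1b* at 25.1 ± 2.19 and *per1a* at 5.09 ± 1.01 RPKM. In each of the 3 genotypes *per2* was above *per3* and *per3* above *per1b*, though the spreads of neighbours overlapped, and *per1a* lay far below them. The order of *per3* and *per1b* rests on the gene lengths, as *per1b* had the higher CPM (170 against 77.9). At ZT21 the order was *per1b* at 28.0 ± 1.97, *per1a* at 24.7 ± 7.05, *per3* at 16.8 ± 1.59 and *per2* at 1.40 ± 0.32 RPKM. There *per1b* was above *per1a* in both mutants and below it in WT siblings. At ZT9, *per2* led with 9.69 ± 3.08 RPKM, followed by *per3* at 4.20 ± 0.62, *per1b* at 1.92 ± 0.27 and *per1a* at 0.976 ± 0.112. At ZT15 all were low, *per1a* at 1.37 ± 0.26, *per2* at 1.10 ± 0.16, *per3* at 0.424 ± 0.110 and *per1b* at 0.387 ± 0.020 RPKM. The order of the Period transcripts therefore changed with the time of day, with *per2* ahead at ZT9 and last at ZT21.

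Across the 20 libraries, after untreated and DEX libraries were centred on their own means, *per1b* and *per3* ran most alike (Pearson's r of log2 CPM 0.966). *per1a* was close to *per1b* (0.824) and to *per3* (0.696), and *per2* had r = 0.551 with *per3* and 0.384 with *per1b*. Between *per1a* and *per2*, r was -0.136. Both were rhythmic, with fitted peaks at ZT22.29 and ZT4.79 in untreated larvae, and a shift between 2 rhythms can by itself give an r near 0. These values describe profiles over 4 time points that the libraries share, and the libraries are not independent points. Among 15266 other named genes, those most like *per1a* were *dbpb* (0.969) and *dbpa* (0.959), which encode PAR bZIP transcription factors, and *NR1D1* (0.957), the Rev-erb alpha repressor. *cipcb*, related to a Clock-interacting protein, was nearest to *per1b* (0.976), with *si:ch211-132b12.7* (0.972) and *MAT2A* (0.962), a methionine adenosyltransferase. *MAT2A* (0.965) and *cipcb* (0.956) were also nearest to *per3*, before *mid1ip1l* (0.949). *per2* had another set, *wdr76* (0.977), *si:dkey-104n9.1* (0.973) and *lonrf1* (0.966). *wdr76* fell from 37.0 CPM at ZT3 to 10.9, 2.04 and 2.14 CPM at ZT9, ZT15 and ZT21 as a mean over untreated larvae, the day-high and night-low course of *per2*.

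The rest of the clock was taken from fixed lists of activators, cryptochromes, the Rev-erb, Ror and Dec group, PAR bZIP factors with *nfil3* genes, and kinases and ligases of Period and Cry proteins, 43 genes of which 42 passed the filter. Of these, 35 were called rhythmic in untreated larvae, beside 16.7% of all genes, with the largest peak-to-trough differences in *dbpb* (7.33, log2), *nr1d4b* (5.90) and *NR1D1* (5.85). All 6 activators, the Clock, Npas2 and Bmal genes, were called, with fitted peaks between ZT9.19 and ZT12.74, away from those of the Period genes. From ZT21 to ZT3, 19 of the 42 rose and 8 fell, beside 7.17% and 4.20% of all genes. From ZT3 to ZT9, 12 rose and 13 fell, beside 0.705% and 1.47%. From ZT9 to ZT15, 6 rose and 15 fell, beside 1.30% and 3.46%, and from ZT15 to ZT21, 18 rose and 15 fell, beside 5.71% and 4.38%. All 7 cryptochromes rose from ZT21 to ZT3, as *per2* and *per3* did, led by *cry5* (4.26, SE 0.18, log2), a light-regulated photolyase of this family. All 6 activators fell from ZT15 to ZT21, the step in which *per1a*, *per1b* and *per3* rose.

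**Figure D2:**
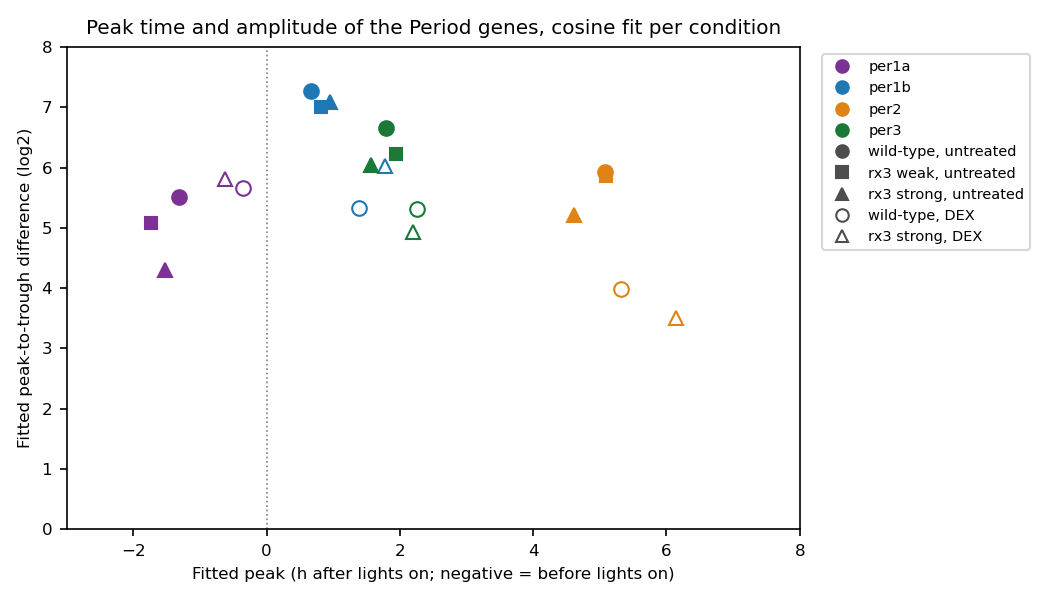
Fitted peak-to-trough difference on the log2 scale against the fitted peak time in hours relative to lights on, from a cosine fitted to the 4 libraries of each condition. Colours mark the genes, symbols the genotypes, and open symbols the DEX libraries. The genes keep the order *per1a*, *per1b*, *per3*, *per2* in all 5 conditions, and the DEX points of *per1b*, *per2* and *per3* lie below the untreated points of the same gene.

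Loss of the eyes and of normal cortisol was examined next, as the study asks which rhythms depend on GCs. The order of the fitted peaks was the same in both mutants as in WT siblings. In untreated larvae the fitted peak lay between ZT22.26 and ZT22.68 for *per1a* and between ZT0.66 and ZT0.95 for *per1b*. For *per2* it lay between ZT4.62 and ZT5.10, and for *per3* between ZT1.57 and ZT1.94. Under DEX the peaks in WT siblings and *rx3 strong* mutants were later for each gene. They were at ZT23.64 and ZT23.37 for *per1a*, ZT1.38 and ZT1.77 for *per1b*, ZT5.31 and ZT6.14 for *per2*, and ZT2.25 and ZT2.19 for *per3*. This shift was not tested by itself, and treatment and kit cannot be told apart in it. Between untreated *rx3 strong* mutants and WT siblings, the joint test of the rhythm detected no difference for any of the 4 genes (adjusted p = 1 each), nor between *rx3 weak* mutants and WT siblings (adjusted p = 1 each). This test called 0% of 22845 genes in either comparison with edgeR, with 656 and 252 genes at an unadjusted p below 0.05, and DESeq2 called 6 genes and 1 gene. It has 3 residual degrees of freedom and so can show large differences only. When the models of the study were compared by the Bayesian information criterion (BIC), all 4 genes were given 1 shared rhythm in the 3 genotypes with weights between 0.714 and 0.780, where 11.9% of 19605 genes were.

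In the test of levels with the time point as a factor, *per1a* was lower in *rx3 strong* mutants than in WT siblings, by -0.44 on the log2 scale (SE 0.14, adjusted p = 0.0385), the one Period gene of 4 called where 18.6% of genes were and the median absolute difference was 0.19. It was lower at ZT3, by 0.668-fold (0.577 to 0.773), and at ZT21, by 0.554-fold (0.519 to 0.592), and not at ZT9 or ZT15, where the ratios were 1.11 (0.811 to 1.53) and 1.11 (0.836 to 1.47). In these library pairs *per1a* was thus lower at the 2 times when it was highest. The log2 differences there were -0.58 and -0.85. The spread over genes of the same library pairs was 0.295 and 0.35 (scaled median absolute deviation, genes with a mean of at least 50 counts). With 1 library per genotype and time this time pattern was not tested, and 1 gene of 4 is near the share over all genes. The call was lost without ZT21 (-0.18, adjusted p = 0.582), without ZT3 (-0.38, adjusted p = 0.199), with DESeq2 (adjusted p = 0.0549) and with limma on the deposited log2 table (adjusted p = 0.316). *per2* differed by -0.36 (SE 0.12, adjusted p = 0.0502), just short of the threshold, and its adjusted p ranged from 0.0160 to 0.486 over the alternatives. It passed with RLE size factors (0.0464), without the filter on low counts (0.0160), without ZT15 (0.0308) and without ZT21 (0.0220), and did not with DESeq2 (0.0590), with limma (0.242), without ZT3 (0.192) or without ZT9, where the difference was -0.14 (0.486). The ratios of *per2* were 0.804 (0.767 to 0.843) at ZT3, 0.549 (0.501 to 0.600) at ZT9, 1.00 (0.777 to 1.30) at ZT15 and 1.05 (0.83 to 1.32) at ZT21. The log2 differences at ZT3 and ZT9 were -0.32 and -0.87, against a spread over genes of 0.295 and 0.297. As *per2* was not called, these single pairs do not place a deficit at a time of day. *per1b* and *per3* differed by 0.03 (SE 0.09) and -0.14 (SE 0.11), with adjusted p-values of 0.884 and 0.440.

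In *rx3 weak* mutants, *per2* was lower than in WT siblings by -0.51 on the log2 scale (SE 0.12, adjusted p = 0.00760), the one member called where 14.1% of genes were. It was lower in 4 of 4 time points, with ratios of 0.738, 0.663, 0.775 and 0.666 at ZT3, ZT9, ZT15 and ZT21. The call was lost without ZT3 (adjusted p = 0.0567) and with limma on the deposited log2 table (adjusted p = 0.0575). *per1a*, *per1b* and *per3* differed by -0.15, -0.12 and -0.17 (adjusted p-values 0.561, 0.462 and 0.400). As in *rx3 strong* mutants, *per1a* was lower at ZT3 (0.872-fold, 0.768 to 0.991) and ZT21 (0.785-fold, 0.739 to 0.833). Its ratio was 0.883 (0.630 to 1.24) at ZT9 and 1.43 (1.10 to 1.86) at ZT15. On the log2 scale *per1a* differed by -0.20 at ZT3, -0.35 at ZT21 and 0.51 at ZT15. The spread over genes of the same library pairs was 0.27, 0.27 and 0.29, so the lower values at ZT3 and ZT21 were of a common size. The study describes the 2 alleles as equally eyeless and as differing in cortisol. The summed photoreceptor genes, however, were at 91.8 to 273 CPM in untreated *rx3 weak* and 11.7 to 18.04 CPM in untreated *rx3 strong* mutants. Summed lens genes were also lower in *rx3 strong* mutants, so a comparison of the alleles does not hold eye tissue equal. Between the 2 alleles, none of the 4 genes passed the test where 11.8% of genes did. *per1a* differed most, by -0.29 (SE 0.14, adjusted p = 0.221), with *rx3 strong* mutants lower, and *per2* by 0.15 (SE 0.13, adjusted p = 0.513). The alleles are therefore not shown to differ in *per1a* or *per2*. Beside the photoreceptor genes given above, 5 genes of a pineal marker list summed to 259 to 908 CPM in untreated WT siblings. Their sums were 16.1 to 74.5 CPM in untreated *rx3 weak* and 8.36 to 12.1 CPM in untreated *rx3 strong* mutants. These sums cannot tell pineal RNA from that of the eye, and the part of either in the Period levels was not tested. In whole larvae, fewer cells of a type and less RNA per cell cannot be told apart.

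The other clock genes were lower more often than higher in the mutants. In *rx3 strong* mutants 14 of 42 were lower and 1 was higher, beside 10.2% and 8.40% of all genes, led by *nfil3-6* (-1.88, SE 0.22), *RORB* (-1.31, SE 0.14) and *nr1d4a* (-1.21, SE 0.25). In *rx3 weak* mutants 9 were lower and none higher, beside 7.63% and 6.42% of all genes, led by the same 3 genes, *RORB* (-1.62, SE 0.15), *nfil3-6* (-1.31, SE 0.20) and *nr1d4a* (-1.26, SE 0.24). *RORB* and *nr1d4a* encode nuclear receptors of the Ror and Rev-erb families, and *nfil3-6* a repressor of the bZIP family. The changes of *per1a* and *per2* were smaller than these.

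**Figure D3:**
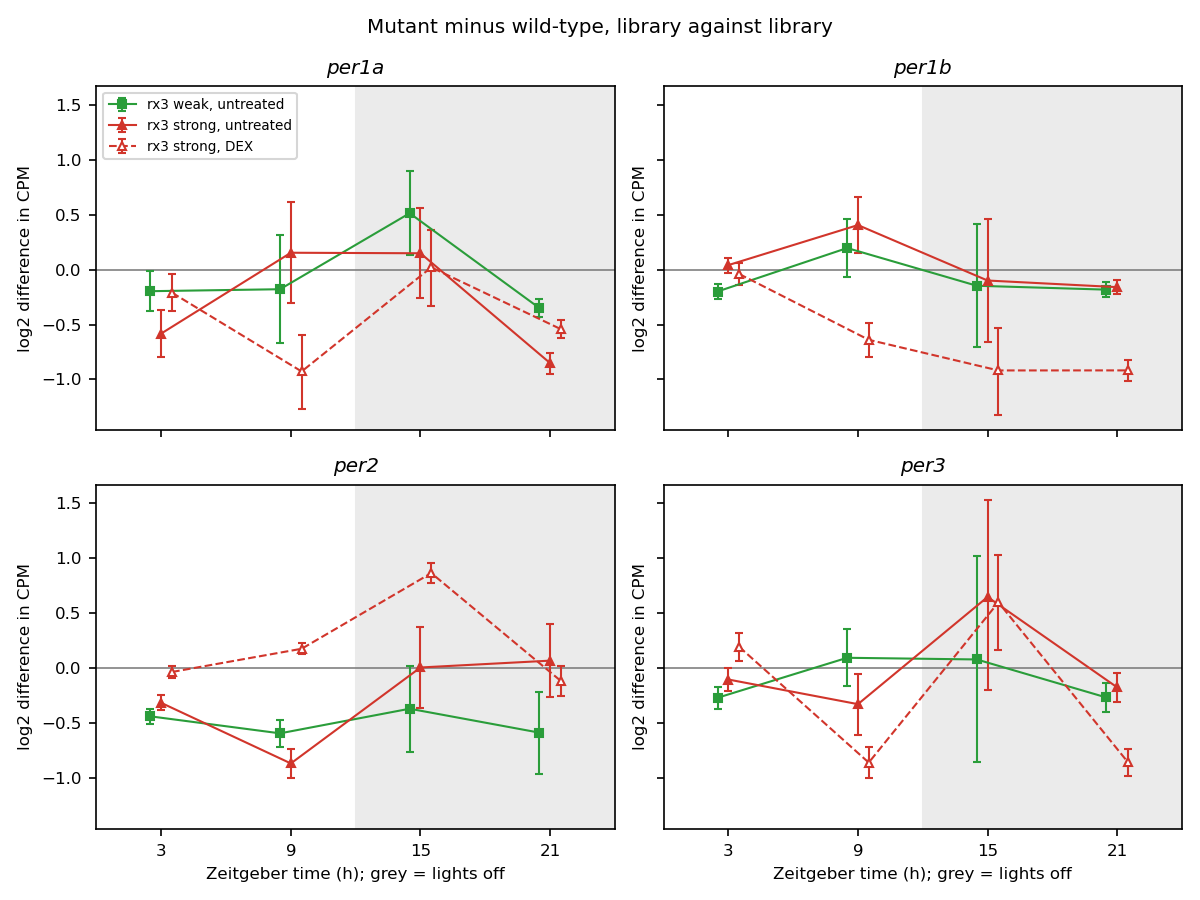
Difference between mutant and WT siblings in log2 CPM at each zeitgeber time, library against library, with 95% counting intervals. Green squares are *rx3 weak* and red triangles *rx3 strong* mutants, filled for untreated and open for DEX libraries. Untreated *per1a* is lowest in *rx3 strong* mutants at ZT21 (-0.85), *per2* in *rx3 weak* mutants is below 0 at all 4 times, and under DEX *per1b* in *rx3 strong* mutants falls to -0.92 at ZT15 and ZT21.

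Under constant DEX the study asked whether rhythms return in *rx3 strong* mutants when GCs are supplied without a rhythm. The Period rhythms, present in the untreated mutants, were present under DEX in both genotypes. *per1a* was at 45.5, 5.84, 3.67 and 121 CPM at ZT3, ZT9, ZT15 and ZT21 in WT siblings under DEX. It was at 39.3, 3.07, 3.72 and 83.3 CPM in *rx3 strong* mutants under DEX. The peak stayed at ZT21, and both values at ZT3 lay above the 3 untreated ones.

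*per1b* was at 127, 23.9, 4.32 and 109 CPM at ZT3, ZT9, ZT15 and ZT21 in WT siblings under DEX. It was at 124, 15.3, 2.28 and 57.6 CPM in *rx3 strong* mutants under DEX. Both DEX values at ZT21 lay below the 3 untreated ones, and the highest time point was ZT3 in both genotypes where it had been ZT21 in all untreated ones. The step test did not tell ZT21 and ZT3 apart in untreated larvae (adjusted p = 0.316), so these ranks do not show a move of the peak. *per3* was at 74.4, 30.1, 1.93 and 61.8 CPM at the same times in WT siblings under DEX. It was at 85.2, 16.6, 2.92 and 34.2 CPM in *rx3 strong* mutants under DEX. Its values at ZT9 and ZT15 lay above all untreated ones, and at ZT3 the ranges overlapped.

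*per2* was at 361, 169, 37.1 and 35.0 CPM at ZT3, ZT9, ZT15 and ZT21 in WT siblings under DEX. It was at 352, 191, 67.6 and 32.3 CPM in *rx3 strong* mutants under DEX. Each of the 8 DEX libraries lay above all untreated libraries of the same time point. Its lowest time point was ZT21 in both genotypes under DEX and ZT15 in the 3 untreated ones. The counting intervals of ZT15 and ZT21 overlapped in each untreated genotype, however. They also overlapped in WT siblings under DEX (35.4 to 38.9 and 32.9 to 37.1 CPM). Only in *rx3 strong* mutants under DEX were they apart (64.9 to 70.5 and 30.0 to 34.7 CPM). The ratio of highest to lowest *per2* level under DEX was 10.3 (9.63 to 11.1) in WT siblings and 10.9 (10.1 to 11.8) in *rx3 strong* mutants.

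All 4 genes were called rhythmic in the 8 DEX libraries, where 5.33% of 23411 genes were. The fitted peak-to-trough differences on the log2 scale were 5.82 for *per1a* (adjusted p = 0.00111), 5.69 for *per1b* (adjusted p = 0.00467), 3.72 for *per2* (adjusted p = 0.00990) and 5.06 for *per3* (adjusted p = 0.0200). Without the WT siblings, with 4 libraries left and 1 residual degree of freedom, *per1a* kept its call, and *per1b*, *per2* and *per3* had adjusted p-values of 0.0765, 0.229 and 0.0700 with fitted differences of 5.96, 3.51 and 4.91. With limma on the deposited log2 table, *per2* and *per3* had an adjusted p of 0.0565 each. A difference in rhythm between the genotypes under DEX was not detected for any of the 4 (adjusted p = 1 each), with fitted differences of 0.38 for *per1a*, 0.88 for *per1b*, 0.97 for *per2* and 0.32 for *per3* on the log2 scale, peak to trough. This test has 2 residual degrees of freedom and called 0% of genes with edgeR, with 305 at an unadjusted p below 0.05, and DESeq2 called 36, so it says little about smaller differences. By the BIC, all 4 genes were given 1 rhythm shared by both genotypes, with weights between 0.799 and 0.882, where 25.8% of 18367 genes were. Of the 42 other clock genes 29 were called rhythmic under DEX, beside 5.33% of all genes, with the same 3 genes leading as in untreated larvae, *nr1d4b* (6.15, log2), *NR1D1* (5.95) and *dbpb* (5.54).

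Between *rx3 strong* mutants and WT siblings under DEX, none of the 4 genes passed the test of levels, where 7.80% of genes did. *per1b* came nearest, at -0.60 on the log2 scale (SE 0.16, adjusted p = 0.0573), and was lower in 4 of 4 time points, by 0.972-fold (0.908 to 1.04) at ZT3, 0.642-fold (0.576 to 0.715) at ZT9, 0.529-fold (0.400 to 0.694) at ZT15 and 0.530-fold (0.497 to 0.564) at ZT21. It passed with DESeq2 (adjusted p = 0.0153), without the filter on low counts (0.0326) and without ZT3 (0.0135), and did not with RLE size factors (0.0504), with limma (0.118), without ZT9 (0.153), without ZT15 (0.180) or without ZT21 (0.217). It also passed when only the WT library at ZT3, the one with the fewest counts, was left out, a choice made after seeing the data (-0.79, adjusted p = 0.0173). *per1a* differed by -0.40 (adjusted p = 0.188), with its lowest ratio at ZT9 (0.526, 0.416 to 0.664), where the untreated ratio was 1.11. As in untreated larvae, it was also lower at ZT21 (0.687, 0.650 to 0.726) and ZT3 (0.864, 0.769 to 0.972). At ZT15 the ratio was 1.01 (0.797 to 1.29). On the log2 scale *per1a* differed by -0.21, -0.93 and -0.54 at ZT3, ZT9 and ZT21. The spread over genes of the same library pairs was 0.43, 0.41 and 0.40. *per2* differed by 0.24 (adjusted p = 0.528) and *per3* by -0.28 (adjusted p = 0.612). Of the other clock genes, *nr1d4a* (-1.36, SE 0.32) and *RORB* (-0.89, SE 0.15) were called.

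The change of the genotype difference with treatment was tested in the 16 libraries of these 2 genotypes, where a kit effect that is the same in both cancels. No Period gene was called, where 2.22% of genes were. The estimates were -0.66 for *per1b* (SE 0.21, adjusted p = 0.142), 0.54 for *per2* (SE 0.24, adjusted p = 0.348), -0.21 for *per3* (SE 0.30, adjusted p = 0.855) and -0.05 for *per1a* (SE 0.25, adjusted p = 0.967). With the other tools, scaling and filter, and without each time point, the adjusted p of *per1b* lay between 0.0773 and 0.537. It passed when the WT DEX library at ZT3 was left out, a choice made after seeing the data (-0.79, adjusted p = 0.0280). Of the other clock genes 3 were called, *nfil3-6* (1.86, SE 0.35), *hlfa* (0.87, SE 0.19) and *nr1d2a* (0.77, SE 0.16).

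**Figure D4:**
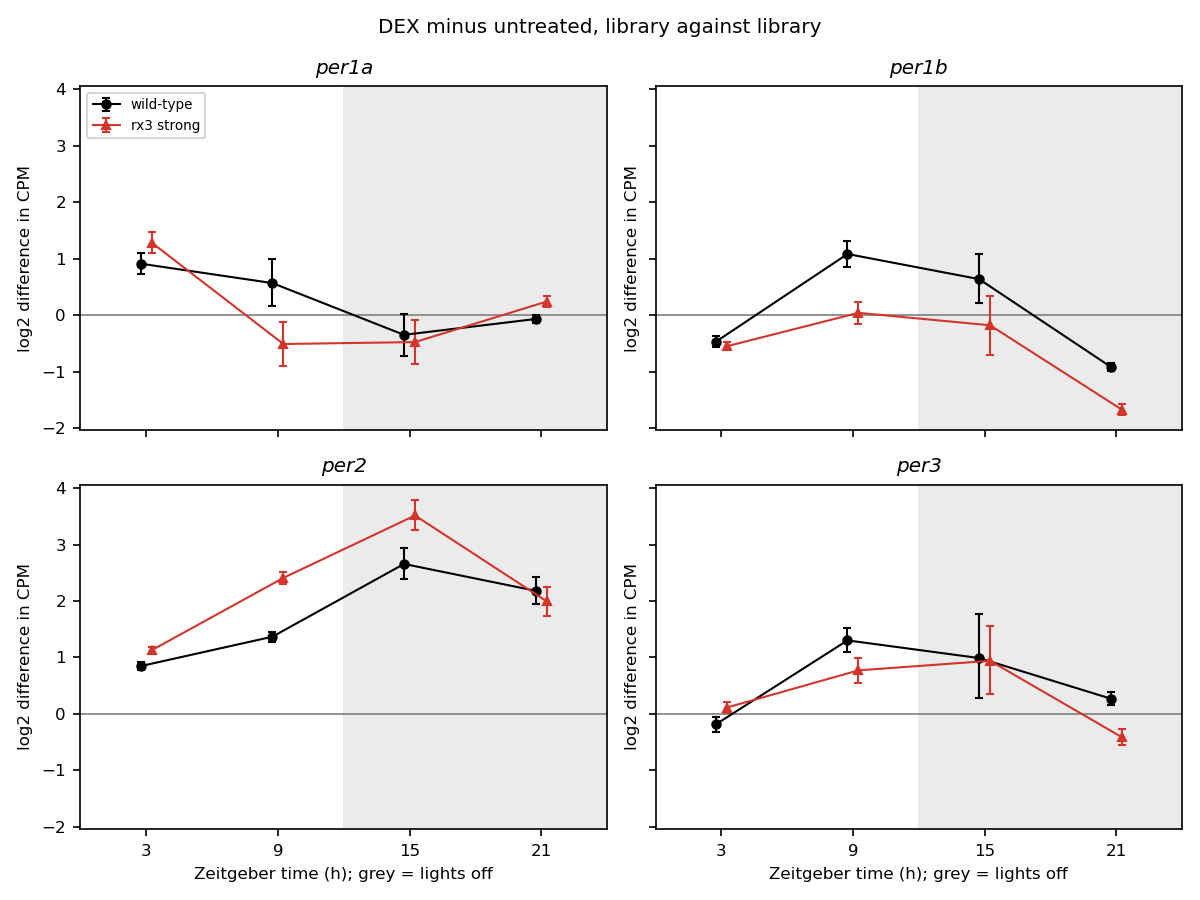
Difference between DEX and untreated libraries of the same genotype in log2 CPM at each zeitgeber time, library against library, with 95% counting intervals. Black circles are WT siblings and red triangles *rx3 strong* mutants. *per2* is above 0 at all times and highest at ZT15 (2.66 and 3.52), while *per1b* is lowest at ZT21 (-0.92 and -1.67).

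DEX libraries were compared with untreated ones across the 4 time points in the same 16 libraries. *per2* was higher under DEX by 1.92 on the log2 scale (SE 0.24, adjusted p = 2.73e-06), in 8 of 8 pairs of libraries. Its fold was 1.80 (1.72 to 1.88) at ZT3, 2.58 (2.42 to 2.75) at ZT9, 6.31 (5.24 to 7.65) at ZT15 and 4.53 (3.84 to 5.39) at ZT21 in WT siblings. In *rx3 strong* mutants it was 2.19 (2.10 to 2.28), 5.31 (4.94 to 5.72), 11.4 (9.57 to 13.8) and 3.99 (3.35 to 4.78). As a fold, the gap was thus widest at ZT15, when untreated *per2* is near its lowest, and narrowest at ZT3, when it is highest. In CPM it was wider at ZT3 than at ZT15. WT siblings had 361 against 201 CPM at ZT3 and 37.1 against 5.89 CPM at ZT15. The *rx3 strong* mutants had 352 against 161 CPM and 67.6 against 5.91 CPM. *per1a*, *per1b* and *per3* differed by 0.16 (SE 0.19), -0.35 (SE 0.23) and 0.37 (SE 0.19), with adjusted p-values of 0.446, 0.176 and 0.0965. In this comparison 72.1% of all genes were called, 36.4% higher and 35.7% lower, so a call by itself says little. Of the genes tested, 4.73% had a difference at least as high as that of *per2*. In WT siblings, *per1b* was higher under DEX at ZT9 (2.12-fold, 1.81 to 2.49) and ZT15 (1.56-fold, 1.15 to 2.13) and lower at ZT3 (0.721-fold, 0.675 to 0.771) and ZT21 (0.530-fold, 0.506 to 0.555). In *rx3 strong* mutants it was lower at ZT3 (0.682-fold, 0.649 to 0.718) and ZT21 (0.314-fold, 0.294 to 0.334), and the intervals at ZT9 and ZT15 included 1. The spread over genes of the same library pairs was wide (scaled median absolute deviation, log2). In WT siblings it was 0.91, 0.97, 1.03 and 0.785 at ZT3, ZT9, ZT15 and ZT21, where *per1b* differed by -0.47, 1.08, 0.64 and -0.92. Differences of this size were thus common over all genes there. In *rx3 strong* mutants the spread was 0.84 at ZT3 and 0.92 at ZT21, where *per1b* differed by -0.55 and -1.67. Over the day *per1b* passed as lower without ZT9 (-0.64, adjusted p = 0.0229) and without the WT siblings (-0.67, adjusted p = 0.0461) and was at 0.02 without ZT21. *per3* passed without ZT21 (0.56, adjusted p = 0.0374).

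Beside these values, the summed level of 7 lens genes was 1089 to 1290 CPM in untreated and 199 to 468 CPM in DEX-treated WT siblings, and its part, like that of the kit, was not tested. Of a list of 12 symbols for the GC receptor and known GC targets, 9 were matched to genes. All 9 were called, beside 72.1% of all genes, and 7 were higher, beside 36.4%. Their median difference was 2.05 on the log2 scale against 0.0027 over all genes, and kit and treatment cannot be told apart in it. Of the 42 other clock genes 20 were higher and 10 lower under DEX, beside 36.4% and 35.7% of all genes, so that in sum they were called about as often as genes in general. The largest changes were in *cry5* (2.93, SE 0.33), *nfil3-6* (2.82, SE 0.33) and *nr1d2a* (2.36, SE 0.20). All 7 cryptochromes were among those higher.

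Whether the rhythm itself changed with treatment was tested on the cosine and sine terms, in which a kit effect that is the same at all times cancels. No Period gene was called, where 0.280% of genes were. *per2* came nearest with a difference of 2.16 on the log2 scale, peak to trough (adjusted p = 0.212), followed by *per1b* (1.97, adjusted p = 0.361), *per1a* (1.63, adjusted p = 0.524) and *per3* (1.30, adjusted p = 0.660). With the time point as a factor in place of the cosine, *per1b* (adjusted p = 0.0180) and *per2* (adjusted p = 0.0280) passed, and *per1a* (0.0700) and *per3* (0.195) did not. The cosine fitted to each condition gave *per2* a peak-to-trough difference of 3.99 and 3.50 under DEX and of 5.21 to 5.93 in untreated larvae. For *per1b* it was 5.32 and 6.02 under DEX and 7.01 to 7.27 in untreated larvae, and for *per3* 5.31 and 4.94 against 6.04 to 6.66. *per1a* went the other way, with 5.66 and 5.81 under DEX and 4.31 to 5.51 in untreated larvae. By its ratio of highest to lowest time point, *per1a* was about the same in WT siblings, at 33.1 under DEX and 32.3 untreated. In *rx3 strong* mutants this ratio was 27.2 under DEX and 16.1 untreated. The cosine fits rest on 4 libraries each and have no test of their own.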

How the data were processed

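Reads were mapped to Zv9 by the authors with STAR, who counted the uniquely mapped reads on Ensembl genes with HTSeq. The deposited counts are not normalized, and the table also holds a length per gene. Whether the counting used strand is not given in the sources used here, so reads of an overlapping gene on the other strand cannot be separated. The authors also deposited a table of 25590 genes on a log2 scale, the variance stabilized values of DESeq2, which were used as an alternative only.

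Counts were tested with edgeR 4.0.16 in R 4.3.3 (quasi-likelihood F test, TMM scaling, filterByExpr, Benjamini-Hochberg adjustment over all genes tested, threshold 0.05). All 4 Period genes passed the filter in every fit. Rhythm fits held 1 mean per genotype, level fits the time point as a factor. Untreated and DEX libraries were fitted apart, and the 16 libraries of WT siblings and *rx3 strong* mutants together for the treatment tests. DESeq2 1.42.0 and limma 3.58.1 served as alternatives, and DESeq2's transformation for the BIC models (weight of at least 0.3 untreated and 0.5 under DEX, mean value of at least 6). Log2 CPM for the likeness of profiles had a prior count of 2, and candidates had a mean of at least 50 counts. Some of the tests were also run on simulated counts with noise and a planted change only. These counts held no unfitted differences in time course, so they cannot show how genotypes or time points serve in place of replicates.

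The counts per library, 12586879 to 49738048, limit precision at the troughs, where the lowest count was 20. Intervals of single libraries are 95% exact intervals and cover counting error only. With no replicate of a condition at a time point, p-values rest on what the fitted genotype, time and treatment terms leave over. This remainder holds noise, departures from the fitted shape and differences in time course between genotypes that were not fitted. In the treatment level fit it also holds any change of the DEX difference with the time of day.

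The members and the gene lists were chosen with earlier results of these data known. Named in the text are the 4 members, the called genes of the clock lists with the 3 largest changes per main comparison, and the 3 named genes most like each member. Gene symbols came from a reference table that names 21939 of 32512 identifiers, in part with human-style symbols. Of the lists, those of photoreceptor, lens, pineal and pituitary markers checked the larvae, and the 5 pituitary genes summed to 9.33 to 14.1 CPM in untreated WT siblings, 10.8 to 20.0 CPM in *rx3 weak* and 5.06 to 10.1 CPM in *rx3 strong* mutants. The alternatives were other tools, scalings, filters and time terms, and fits without each genotype or time point. Leaving out the WT DEX library at ZT3 was chosen after seeing the data.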

Additional observations from a re-analysis of the deposited data

Results flagged for a closer look

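In untreated WT siblings, *per1a* at ZT21 (127 CPM) stood far from the other 3 time points. The gap to the next library was 0.836 of the whole range, above Dixon's 95% critical value. Of 25 groups of 4 libraries tested this way, 1 passed, where about 1 in 20 would by chance. The 4 libraries of a group are different time points, so for a rhythmic gene this rule cannot tell an outlying library from a peak. ZT21 was also the highest time point of *per1a* in untreated *rx3 weak* (99.9 CPM) and *rx3 strong* mutants (70.6 CPM).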

How the results depend on the processing

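In the main tests, the call of the 4 genes was the same in 435 values under the alternatives, 11 lost the threshold and 14 passed it newly. The 435 include values that passed neither in the main test nor in the alternative. The sign was compared only for log2 differences, not for the joint tests of rhythm. In 8 values the sign changed, and over the fits without a time point or genotype they ranged, for *per1a*, from -0.22 to 0.21 in the genotype by treatment test and from -0.18 to 0.34 in the treatment level, for *per1b* from -0.084 to 0.13 between untreated *rx3 strong* mutants and WT siblings and from -0.67 to 0.022 in the treatment level, and for *per3* from -0.055 to 0.19 between the alleles.

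Of the 4 genes, 4 were rhythmic under DEX, but 2 with limma on the deposited log2 table and 1 to 4 without a genotype. Between *rx3 strong* mutants and WT siblings, 1 was called in untreated larvae, but 0 with DESeq2 or limma, 2 with RLE size factors or no filter and 0 to 2 without a time point, and 0 under DEX, but 1 with DESeq2, no filter or without the WT DEX library at ZT3 and 0 to 1 without a time point. Between *rx3 weak* mutants and WT siblings, 1 was called, but 0 with limma and 0 to 1 without a time point. In the treatment level 1 to 2 were called without a genotype or time point, in the genotype by treatment test 1 without the WT DEX library at ZT3, and in the rhythm difference by treatment 2 with the time point as a factor.

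Over all genes, DESeq2 called 3486 rhythmic genes under DEX where edgeR called 1248, limma 150, the time point as a factor 2936, and edgeR without the WT DEX library at ZT3 487 and without a genotype 22 to 742. For the rhythm difference by treatment, 66 genes became 821 with DESeq2, 20 with limma, 172 with no filter, 757 with the time point as a factor, 15 without the WT DEX library at ZT3 and 0 to 2 without a genotype. For the rhythm differences between genotypes, 0 became 6 (strong, untreated), 1 (weak) and 36 (strong, DEX) with DESeq2, and 79, 17 and 27 with no filter. The genotype by treatment test called 523 genes, 869 with DESeq2 and 150 to 381 without a time point. Genotype levels without a time point gave 1072 to 1482 genes under DEX (main 1826, limma 796), 1776 to 2224 between the alleles (main 2686) and 2063 to 2505 for *rx3 weak* mutants (main 3210). Without a genotype, 1433 to 3450 genes were rhythmic in untreated larvae (main 3730), and the steps gave 671 to 3271 (ZT21 to ZT3, main 2597), 130 to 957 (ZT3 to ZT9, main 497, limma 196), 378 to 1225 (ZT9 to ZT15, main 1088) and 802 to 2251 (ZT15 to ZT21, main 2306). Fits without a genotype or time point hold fewer libraries. The other causes were not tested.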
